A study of Phragmites australis with 7 samples.

Results

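The subject of this report is a set of 200 genes of the common reed, Phragmites australis, whose transcripts made up a far larger share of the counts in dissociated shoot cells than in an intact section of a shoot bud. The members were selected on measured values, with no test. For every gene that was present in both feature lists and lay on neither chromosome 24 nor a scaffold, the share of the section's counts was divided by the share of the unique molecular identifiers (UMIs, one per captured transcript molecule) in the cells of the invasive individual NAint61. Of 41674 eligible genes, 11263 had at least 1000 UMIs in those cells, and the 200 with the lowest log2 ratio were taken (PaChr3.1219 was left out by the rule). A negative ratio stands for more transcripts in the cells.

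The series compared plants of 2 lineages grown in a common garden, each individual being 1 single-cell library made from several pooled buds regenerated from rhizomes. The invasive North American lineage was represented by NAint61 (batch 3), NAint113 (batch 1) and NAint191 (batch 2). The European (EU) lineage was represented by EU60 (batch 1), EU78 (batch 1) and EU620 (batch 2). The labels name no treatment, and the tissue label was shoot although the protocol field named rhizome tips. The section came from a fresh-frozen bud of NAint61, was labelled batch 1, and was read on a spatial platform with its own aligner and cell segmentation. The libraries held 7154 to 15297 barcodes and 95335255 to 132478792 UMIs, and the section held 43513204 counts in 78619 segmented cells. Transcripts of photosystem and antenna subunits, which define green tissue, took 0.384% to 0.609% of UMIs in the batch 2 libraries and 0.0174% to 0.0262% in the batch 1 libraries. They took 0.231% in NAint61.

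Single plant cells are obtained by digesting the walls with cellulases and pectinases in a shaken solution. Wounding, wall fragments, touch and osmotic stress are each known to switch on early response genes in plants, among them ethylene response factors (ERFs), U-box ubiquitin ligases, calmodulin-like calcium sensors and heat shock proteins. A section frozen before handling has no such digestion step. Cells and section here also differed in capture chemistry, alignment and tissue sampled, and there was 1 section, so that induction by digestion and a difference between the platforms cannot be told apart. The ranking measures enrichment in the dissociated cells, and induction was not measured.

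The members took 7.93% of all UMIs in the NAint61 cells and 0.0353% of the section's counts. The median log2 ratio of the members was -8.16, against 0.21 over all 11263 ranked genes, and 5% of ranked genes lay below -4.56. The lowest value was -13.25 (PaChr1.2581) and the highest was -6.82 (PaChr9.382). The limit of 200 did not fall in a gap. PaChr3.337 (-6.83), PaChr2.1628 (-6.83) and PaChr9.382 (-6.82) were just inside it, and PaChr18.414 (-6.82), PaChr5.1734 (-6.81) and PaChr9.1574 (-6.80) were just outside.

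**Figure D1:**
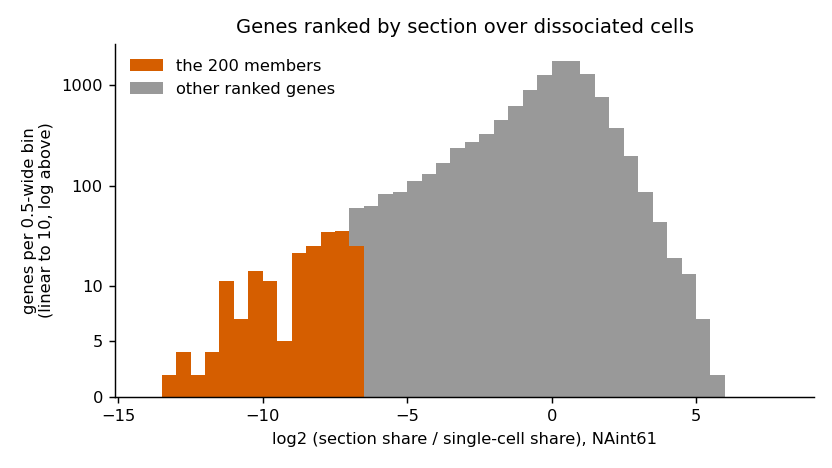
Number of genes (vertical axis, linear to 10 and logarithmic above) by the log2 ratio of the section's share to the single-cell share in NAint61 (horizontal axis, bins of 0.5). The 200 members, in orange, run from -13.25 to -6.82 and form the left tail of a distribution whose median is 0.21.

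In the section, 23 members were not counted at all. They were the only ranked genes at 0, which the rule fixes. With at least 1000 UMIs in the cells, a gene at 0 in the section has a ratio below the limit. A further 67 members had fewer than 10 counts, 75 had 10 to 99 and 35 had 100 or more, with 3442 as the highest count. A member count was present in 11236 segmented cells, which is 14.3% of them. Of the 200, 29 had fewer than 2000 UMIs in the NAint61 cells, the median being 10022 against 2572 for all ranked genes. In 25 members (12.5%) a directly neighbouring gene held at least as many section counts as the member's single-cell share predicts, against 38.2% of all ranked genes. The predicted count rises with a gene's own UMIs, which were higher in the members. A lower share is therefore expected for the members, and nothing about neighbouring genes can be drawn from this contrast.

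The 10 members with the lowest ratios were led by PaChr1.2581, with 117495 UMIs in the cells and 5 counts in the section. Its share was 10726-fold higher in the cells, with a 95% counting interval of 4596 to 33032 from the section's count alone. PaChr6.1521 had 9766 UMIs, PaChr2.406 had 8841, PaChr6.2425 had 7730 and PaChr17.774 had 7598, each with no count in the section. Set against a floor of 3 counts over the section, which is 0.0689 CPM (counts scaled to a total of 1000000), their shares were at least 1486-fold, 1345-fold, 1176-fold and 1156-fold higher in the cells. Best Arabidopsis hits were given for 47 members and 1230 ranked genes, taken from the study's tables of cluster markers, and none of these 5 genes had one.

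Of the first 10 members, 3 had a hit with a symbol. PaChr6.2115 is a hit to ERF109, an ethylene response factor of the Arabidopsis stress response, and had 20826 UMIs and 1 section count. PaChr16.1437 is a hit to PSK1, a precursor of the peptide hormone phytosulfokine, and had 36031 UMIs and 3 section counts. PaChr19.383 is a hit to CAD6, a cinnamyl alcohol dehydrogenase of the lignin branch, and had 61096 UMIs and 6 section counts. The remaining genes of the first 10 were PaChr25.458, with 20207 UMIs and 2 counts, and PaChr12.796, with 65156 UMIs and 8 counts. PaChr12.796 shares its best hit, AT5G12340, with the members PaChr9.771 and PaChr1.2886.

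The 10 members with the most UMIs carried much of the set's total. In each library, the 10 members highest in that library held 38.8% to 48.8% of the UMIs on all members. PaChr3.2532 was the most abundant in NAint61, with 918425 UMIs in the cells and 3442 counts in the section (log2 ratio -6.93). It had 9504, 16216 and 6756 CPM in NAint61, NAint113 and NAint191, against 13300, 10532 and 5864 in EU60, EU78 and EU620. The levels of the lineages overlapped, and the pair of batch 2 libraries was lowest. PaChr16.277 (327465 UMIs and 107 section counts), PaChr3.2009 (314542 and 537) and the merged feature PaChr8.433_PaChr8.434_PaChr8.435 (282483 and 84) followed. Of the other 6, 3 had a named hit, namely a second ERF109 gene, DJC26 (a chloroplast J-domain protein) and HSP17.4B, and PaChr18.939, PaChr5.318 and PaChr19.1059 had none.

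Transcription factors of the stress response contributed 5 members out of 36 annotated and ranked genes of that list, whose median log2 ratio was -4.62. PaChr14.1038, the second ERF109 gene, had 203899 UMIs and 554 section counts, and PaChr2.2021 (BHLH92, a basic helix-loop-helix factor) had 37062 UMIs and 21 section counts. Both ranked hits to ERF114 were members, as were 2 of the 3 ranked hits to ERF109. U-box and RING ubiquitin ligases, which mark proteins for degradation, contributed 4 of 15 (list median -5.09). They were 3 of the 5 ranked hits to PUB23, a negative regulator of immune signalling in Arabidopsis, and PaChr4.710 (CMPG1). PaChr22.832 was the PUB23 gene with the most UMIs, 29529 in the cells and 60 counts in the section.

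Defence and immune signalling gave 5 members of 35 (list median -3.03), among them PaChr23.974 (VQ12, a WRKY-binding VQ protein), PaChr2.2397 (CHIA, an acidic chitinase) and PaChr11.101 (NHL25, related to NDR1). Detoxification and redox enzymes gave 3 of 19 (median -3.67), namely PaChr6.2072 (UGT85A2, a glycosyltransferase), PaChr9.267 (GSTF13, a glutathione transferase) and PaChr6.842 (AOX1A, the mitochondrial alternative oxidase). Heat shock and chaperone genes gave 3 of 11 (median -2.36), namely PaChr5.2106 (HSP17.4B, a small heat shock protein), PaChr21.659 (BAG6, a co-chaperone) and PaChr5.1025 (HSFA3, a heat shock factor). Calcium sensors and transport gave 1 of 11 (median -2.18), PaChr23.857 (CML11, a calmodulin-like protein). Cell wall remodelling gave 1 of 15 (median -0.70), PaChr1.869 (PME41, a pectin methylesterase), and phenylpropanoid and lignin enzymes gave 1 of 27 (median 0.33), the CAD6 gene.

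The other 4 lists held no member. Jasmonate and ethylene enzymes had a median of -3.65 over 8 genes, and their best-placed gene ranked 598. Cytosolic ribosomal proteins had a median of -0.62 over 135 genes and histones -1.31 over 59. Photosystem and antenna subunits had a median of 1.21 over 32 genes, on the section's side of the distribution. By comparison, 47 of the 1230 annotated ranked genes were members, and 200 of all 11263. The lists were described by counts and medians only, since the ranking itself chose the members.

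Positions of the members were spread over the genome. All 24 numbered chromosomes with ranked genes carried at least 3 members, and the share of ranked genes that were members was 1.71% on chromosomes of subgenome A and 1.83% on those of subgenome D. In 5 cases the next gene along a chromosome was also a member, among them PaChr14.1038 (ERF109) beside the merged feature PaChr14.1036_PaChr14.1037, and PaChr18.939, PaChr18.940 and PaChr18.941 in a row. Of the members, 6 were merged features that span several gene models, so that their reads cannot be assigned to 1 gene.

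Every member was detected in each of the 6 libraries, and every retained cell carried at least 1 member UMI. The members' share of UMIs over retained cells stood at 7.81% in NAint61, 9.98% in NAint113 and 6.0% in NAint191, against 9.21% in EU60, 8.97% in EU78 and 6.70% in EU620. The lineages overlapped. Arranged by batch, the shares were 6.0% and 6.70% in batch 2 and 8.97% to 9.98% in batch 1, with no overlap. The corresponding shares over all deposited barcodes were 6.08% and 6.72% in batch 2 and 8.98% to 10.0% in batch 1, so the cell filter moved them little.

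**Figure D2:**
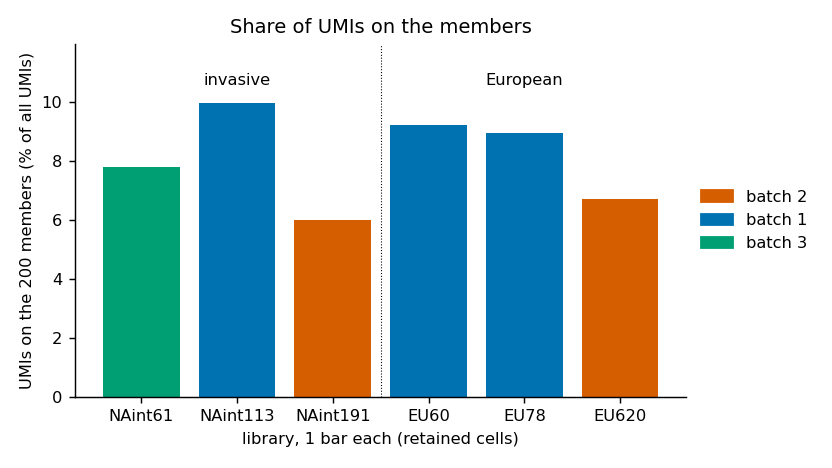
Share of all UMIs (vertical axis, percent) that fell on the 200 members, 1 bar per library, retained cells. Invasive libraries are on the left and European libraries on the right, coloured by batch label. The 2 batch 2 libraries are lowest at 6.0% and 6.70%, and the 3 batch 1 libraries are highest at 8.97% to 9.98%.

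Only the NAint61 cells entered the selection. Against the same section, the members' median log2 ratio was -8.38 with the NAint113 cells, -7.35 with NAint191, -8.28 with EU60, -7.85 with EU78 and -7.67 with EU620, and at least 198 of the 200 lay below -3 in each. With the cells of EU60, 2 members had a ratio above 0. When the rule was applied to another library's cells in place of those of NAint61, 99 (EU78) to 127 (NAint113) of its 200 lowest genes were members. Of the 200, 61 were among the 200 lowest in all 6 libraries and 28 in NAint61 alone. These rankings share the section and are not independent of one another.

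The members varied more between libraries than ranked genes in general did. With 1 CPM added, a member's highest library exceeded its lowest by a median of 5.20 times, against 2.67 times for all ranked genes. Without NAint61 the medians were 4.48 and 2.38. Of the members, 132 (66.0%) varied more than 4 times over the 6 libraries, against 28.5% of ranked genes. NAint191 was the lowest library for 69 of 200 members and for 2358 of 11263 ranked genes. NAint61 was the highest for 50 members and for 2844 ranked genes, a similar share, and both sets had to reach a minimum in NAint61. The widest range belonged to PaChr13.191, with 86.3, 355 and 10.6 CPM in NAint61, NAint113 and NAint191, against 0.33, 106 and 8.26 in EU60, EU78 and EU620.

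Comparison of the invasive with the EU lineage left out NAint61, whose cells chose the members, and used edgeR's quasi-likelihood test on UMI sums of NAint113 and NAint191 against EU60, EU78 and EU620, with mean reads per cell as covariate. None of the 200 members was called at an adjusted p below 0.05 and a log2 fold change beyond 1, and the share called over the 33054 genes tested was 0% as well. At an unadjusted p below 0.05 there were 28 members (14%), against 12.2% of all genes tested, which were not matched to the members for UMIs. The members' median log2 fold change, invasive over EU, was -0.13, against -0.03 for all genes. The lowest adjusted p of a member was 0.352 in edgeR's test with Benjamini-Hochberg adjustment. DESeq2 called 11 members (4 higher and 7 lower in the invasive plants), which is 5.50%, beside 4.54% of all genes (2.84% higher and 1.69% lower). Without NAint113, edgeR called 15 members (7.50%, 3 higher and 12 lower), beside 2.83% of all genes (648 higher and 282 lower), with NAint191 as the lone invasive library, assumed to vary like the others.

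Within batches the direction differed. In batch 1, the members' share of UMIs in NAint113 was 1.10 times the mean of EU60 and EU78, and the median member differed by 0.21 on the log2 scale. In batch 2, the share in NAint191 was 0.895 times that in EU620, and the median member differed by -0.32. Over all ranked genes these medians were -0.05 and 0.04. A single invasive library per batch gave no error for either value. With the batch label as covariate in place of mean reads per cell, edgeR called 2 of 33054 genes between the lineages and 0 members, and 21 members (10.5%) had an unadjusted p below 0.05, against 7.15% of all genes.

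Members differed between the batch labels, mostly as lower levels in batch 2. Batch 2 (EU620 and NAint191) was compared with batch 1 (EU60, EU78 and NAint113) by the same edgeR test with lineage as covariate. Of the 200 members, 68 (34.0%) were called, 13 higher and 55 lower in batch 2. Over all 33054 genes tested, 18.8% were called, 10.1% higher and 8.71% lower. Lower calls took 27.5% of the members and higher calls 6.50%. The members' median log2 fold change was -0.57, against -0.04 for all genes. DESeq2 called 98 members (25 higher and 73 lower), which is 49.0%, beside 30% of all genes (15.4% higher and 14.6% lower). At an unadjusted p below 0.05 in edgeR there were 105 members (52.5%), against 37.2% of all genes. All genes tested needed only 10 counts in any library, so they were not matched to the members for UMIs. Called shares over the 11263 ranked genes were not computed. Within the EU lineage, 37.5% of members were lower in batch 2 by more than 1 log2 unit, against 15.7% of ranked genes. For higher levels these shares were 20% and 17.2%. Within the invasive lineage they were 49.5% and 16.9% lower, and 12% and 21.8% higher, with no test. The call rests on all of 3 libraries: with EU620, NAint191 or NAint113 left out, edgeR called 0 members, and 76, 84 and 81 of them had an unadjusted p below 0.05, against 19.6%, 21.7% and 21.7% of all genes. With mean reads per cell as a further covariate it also called 0 members, and 57 had an unadjusted p below 0.05, against 11.8% of all genes. In each of these 4 fits 0 of all genes tested were called, so the loss was not particular to the members.

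**Figure D3:**
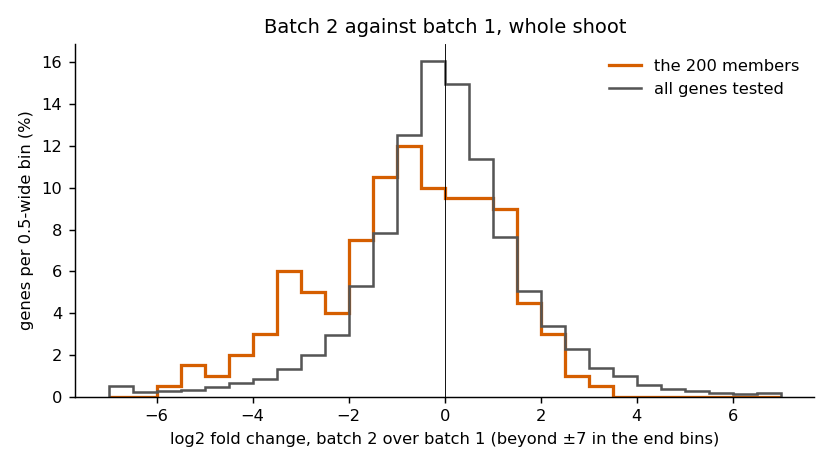
Distribution of log2 fold changes, batch 2 over batch 1 (horizontal axis, bins of 0.5), as percent of genes (vertical axis) for the 200 members (orange line) and for all 33054 genes tested (grey line). The members' median is -0.57 and that of all genes -0.04, and 6.0% of the members lie between -3.5 and -3, where 1.35% of all genes lie.

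Of the annotated members that fell in batch 2, the 5 with the lowest adjusted p are given first. PaChr9.951, one of the ERF114 genes, had 22.4 and 20.8 CPM in EU620 and NAint191, against 343, 368 and 307 in EU60, EU78 and NAint113. Its log2 fold change was -3.98 ± 0.30 (SE, edgeR adjusted p = 0.00956). AOX1A (PaChr6.842) had 41.3 and 36.6 in batch 2, against 713, 537 and 576 in batch 1 (log2 fold change -3.98 ± 0.32, edgeR adjusted p = 0.00957). The groups did not overlap for either gene, and NAint61 lay between them, at 54.3 for ERF114 and 127 for AOX1A.

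PaChr3.1998, a hit to AT3G62800, had 48.1 and 21.2 CPM in EU620 and NAint191, against 889, 1222 and 335 in EU60, EU78 and NAint113 (log2 fold change -4.29 ± 0.37, edgeR adjusted p = 0.00982). PaChr9.898, a hit to the AP2/ERF gene AT1G71520, had 62.5 and 26.9, against 626, 649 and 237 (log2 fold change -3.30 ± 0.29, edgeR adjusted p = 0.00982). PaChr1.2487, one of the PUB23 genes, had 82.8 and 36.7, against 417, 408 and 194 (log2 fold change -2.39 ± 0.27, edgeR adjusted p = 0.0119). In each of them both batch 2 libraries lay below all batch 1 libraries. These genes, ERF114 and AOX1A were picked by adjusted p from the same libraries, so their separation describes the choice.

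All 3 PUB23 genes fell in batch 2, with log2 fold changes of -3.19 (PaChr23.30), -1.79 (PaChr22.832) and -2.39 (PaChr1.2487), and so did CMPG1 (-2.44). The 3 genes with a symbol at the head of the ranking fell as well. ERF109 on chromosome 6 (PaChr6.2115) had 63.6 and 41.3 CPM in EU620 and NAint191, against 472, 358 and 525 in EU60, EU78 and NAint113 (log2 fold change -3.14 ± 0.39, edgeR adjusted p = 0.0132). PSK1 had 116 and 42.3, against 712, 1490 and 524 (log2 fold change -3.46). CAD6 had 71.5 and 66.3, against 465, 1211 and 788 (log2 fold change -3.61). CML11, GSTF13, VQ12, PME41 and UGT85A2 fell by 2.61, 2.57, 1.83, 1.54 and 1.45 on the log2 scale.

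The other ERF109 gene did not share this pattern. PaChr14.1038 had 1757 and 1140 CPM in EU620 and NAint191, against 630, 774 and 639 in EU60, EU78 and NAint113, and 2192 in NAint61. Its log2 fold change was 1.08 ± 0.29 and did not pass (edgeR adjusted p = 0.0594). The heat shock genes were not called either. HSP17.4B had 575 and 249 in batch 2, against 381, 270 and 739 in batch 1, and was highest in NAint61 at 1755. BAG6 had 1262 and 598 in batch 2, against 304, 262 and 379 in batch 1 (adjusted p = 0.0605 in edgeR's test).

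Of the annotated members, 2 rose in batch 2. PaChr9.382, a hit to AT3G15630 and the last gene inside the limit, had 1694 and 1850 CPM in EU620 and NAint191, against 121, 171 and 262 in EU60, EU78 and NAint113 (log2 fold change 3.20 ± 0.35, edgeR adjusted p = 0.0115). CYP709B2 (PaChr15.1254), a cytochrome P450, had 519 and 457, against 272, 266 and 164 (log2 fold change 1.14 ± 0.27, edgeR adjusted p = 0.0433). NAint61 lay at 1189 for the first and at 249 for the second.

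**Figure D4:**
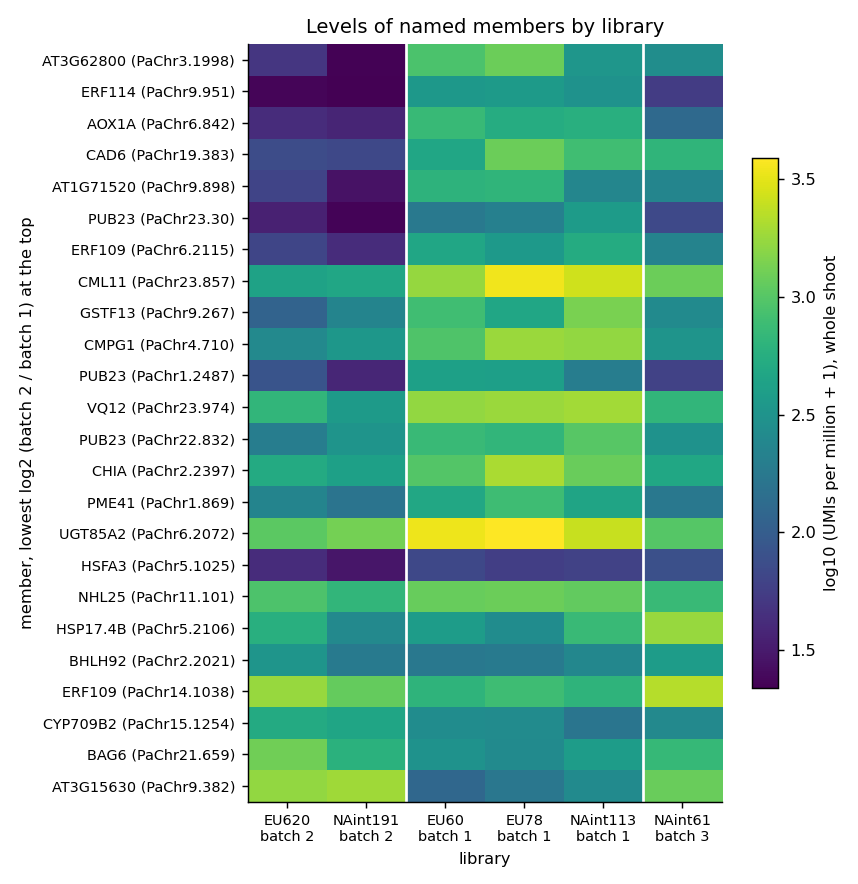
Level of annotated members named in the text (rows, sorted by log2 fold change of batch 2 over batch 1) in each library (columns, batch 2, then batch 1, then NAint61 of batch 3), coloured by log10 of CPM plus 1 over the whole shoot. The upper rows are low in EU620 and NAint191, and AT3G15630 in the bottom row is high in them, at 1694 and 1850.

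Over all annotated ranked genes of the lists, members included, calls between the batches were as follows. For comparison, 10.1% of all 33054 genes tested were called higher and 8.71% lower in batch 2. The called share over all 1230 annotated ranked genes was not computed. Of 36 ranked genes for stress transcription factors, 8 were called higher and 16 lower in batch 2, and of 15 ubiquitin ligases 1 was higher and 11 lower. Phenylpropanoid enzymes gave 5 higher and 13 lower of 27, defence genes 4 and 15 of 35, and detoxification enzymes 3 and 8 of 19. Cell wall remodelling gave 6 higher and 5 lower of 15, with a median log2 fold change of 1.23. Calcium sensors and transport gave 1 and 4 of 11, and jasmonate and ethylene enzymes 0 and 1 of 8. Cytosolic ribosomal proteins gave 2 and 0 of 135, and histones 0 and 4 of 59. Among heat shock genes 1 of 11 was called, as higher. All 32 photosystem and antenna genes were called higher in batch 2, with a median log2 fold change of 4.97. The part of this difference in the members' levels was not tested. Median UMIs per cell overlapped between the batches, at 11610 and 7802 in EU620 and NAint191, against 8546, 8695 and 5959 in EU60, EU78 and NAint113. Mean reads per cell, as the study lists them, did not overlap. Both batch 2 libraries lay above all batch 1 libraries in that measure of depth. The part of sequencing depth in the batch calls was not tested.

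The called members moved alike in both lineages. For the 55 that fell, the median log2 difference was -2.46 between EU620 and the mean of EU60 and EU78, and -2.77 between NAint191 and NAint113. For the 13 that rose, these medians were 2.01 and 1.88. Both lineages entered the test that chose these genes, so the values describe the calls.

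Cell classes were built from the retained cells without the members, so that the members did not shape the classes. Of 33 clusters, 26 were given a class from the study's own marker genes, 16 classes in all, each called X-like here. They held 50722 of 57798 cells. Only 7 of the 26 had one of their own markers among their 10 leading genes, and the Vascular parenchyma, Protoderm1 and Parenchyma1 classes rested on 3 markers each, so the names are tentative. Since genes that move with the members remained in the clustering, differences between classes are given as descriptions.

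The share of UMIs on members ran from 10.1% in Phloem1-like cells to 4.16% in G2/M phase-like cells, a ratio of 2.43. Bundle sheath cell-like (9.77%), Vascular parenchyma-like (9.56%), Protoderm2-like (9.44%) and Protoderm1-like (9.33%) cells followed the highest class. Over pooled cells, Xylem-like cells stood at 5.57% and Mesophyll-like cells at 5.49%. As means over the 6 libraries, the shares were 9.83% ± 1.00 in Phloem1-like and 9.74% ± 1.13 in bundle sheath cell-like cells (SD, n = 6). Within libraries, Phloem1-like cells were above bundle sheath cell-like cells in EU78, EU620 and NAint113, and below them in EU60, NAint61 and NAint191. The mean shares were 6.53% ± 1.65 in Mesophyll-like, 5.70% ± 0.86 in Xylem-like and 4.33% ± 1.30 in G2/M phase-like cells (SD, n = 6). Mesophyll-like cells thus came above Xylem-like cells when libraries had equal weight and below them when cells were pooled. They were above G2/M phase-like cells in 6 of 6 libraries. G2/M phase-like cells were the lowest class in 5 of 6 libraries, the exception being NAint61, where Xylem-like cells were at 4.12% and G2/M phase-like cells at 4.24%.

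**Figure D5:**
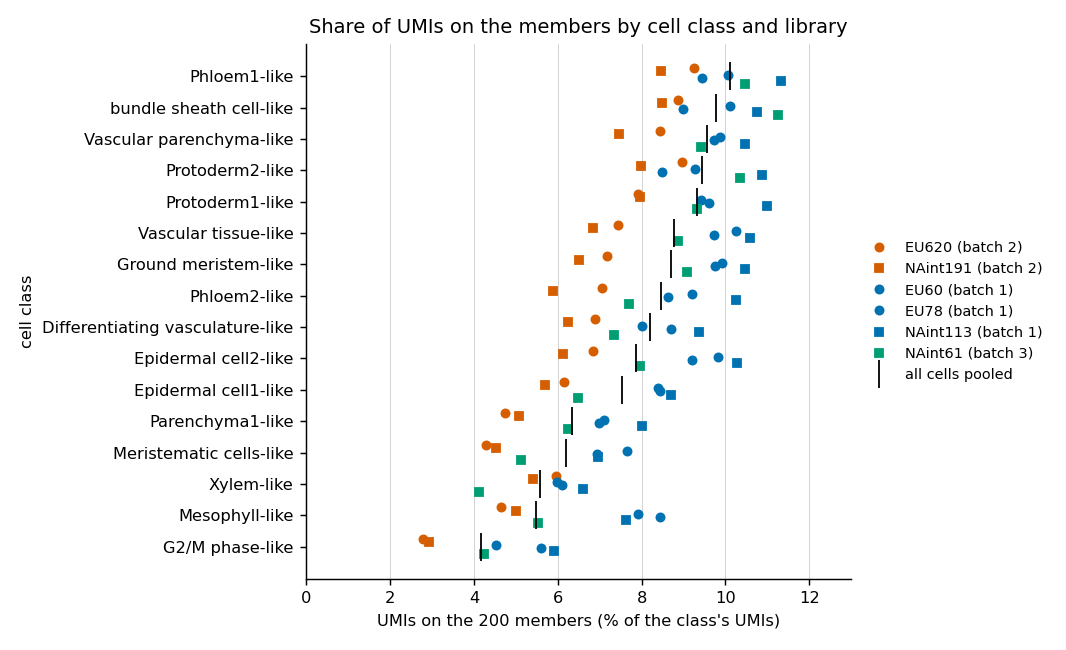
Share of a class's UMIs on the 200 members (horizontal axis, percent) for 16 cell classes (rows), 1 point per library (squares invasive, circles European, coloured by batch) and a black tick for all cells pooled. Pooled shares run from 10.1% in Phloem1-like to 4.16% in G2/M phase-like cells, and the batch 2 points lie left of the batch 1 points in most classes.

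The shares varied with depth. When the cells of a library were divided into 5 groups of equal size by UMIs, both the group with the fewest and that with the most had a lower share of members than the middle group in all 6 libraries. The fewest-UMI group stood, for example, at 4.77% against 6.23% for the middle group in NAint191 and at 7.16% against 10.7% in NAint113, where the group with the most UMIs had 9.60%. Parenchyma1-like cells, with a median of 1570 UMIs, had 6.35%. G2/M phase-like cells, with a median of 10957 UMIs, were not shallow. The 7076 cells in unnamed clusters had a median of 2830 UMIs and a share of 6.46%.

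The lower level of batch 2 was seen within classes. The share in NAint191 was below that in NAint113 in all 16 classes, from 0.497 times in G2/M phase-like to 0.820 times in Xylem-like cells. The share in EU620 was below the mean of EU60 and EU78 in 15 of 16 classes, the exception being Protoderm2-like cells at 1.01 times. In Vascular parenchyma-like cells, the largest class with 9737 cells, PaChr6.2115 (ERF109) had 121 and 83.2 CPM in EU620 and NAint191, against 704, 595 and 729 in EU60, EU78 and NAint113. In the same cells, PaChr14.1038 (ERF109) had 1814 and 1204, against 499, 501 and 371.

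When each library was given the same weight, 48 members (24.0%) were highest in Ground meristem-like cells and 37 (18.5%) in Protoderm2-like cells, against 4.47% and 6.16% of all ranked genes. Phloem1-like cells were highest for 19 and bundle sheath cell-like cells for 18. No member was highest in G2/M phase-like cells, against 21.5% of ranked genes. A level above 1 CPM in every class was held by 197 of 200 members and by 11087 of 11263 ranked genes. The median ratio of the highest to the median class was 2.42, against 2.06 for all ranked genes. The highest class was the same in all 6 libraries for 23 members and in at least 4 for 99. No such count is given for all ranked genes, so whether this is particular to the members was not tested.

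Members highest in Ground meristem-like and in Protoderm2-like cells differed in the libraries and batches in which they were high. Of the 48 in Ground meristem-like cells, which included HSP17.4B, BAG6 and PaChr14.1038 (ERF109), 25 were highest in NAint61 and 14 in EU620, and 7 rose and 2 fell in batch 2. Of the 37 in Protoderm2-like cells, which included PSK1, CAD6, CML11, VQ12 and all 3 PUB23 genes, 20 were highest in EU78 and 9 in NAint113. Of the same 37, 26 fell and none rose in batch 2. Called shares over all 33054 genes tested were 10.1% higher and 8.71% lower. The split by class was made for members only, so whether it is particular to them was not tested. NAint61 is the library whose cells chose the members. As a mean over libraries, HSP17.4B had 2124 CPM in Ground meristem-like cells against 606 in the median class. Ground meristem-like was its highest class in 6 of 6 libraries, while its whole-shoot level ran from 249 CPM in NAint191 to 1755 in NAint61. PaChr1.2487 (PUB23) had a mean of 474 in Protoderm2-like cells against 118 in the median class. Protoderm2-like was its highest class, also in 6 of 6.

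Some members were highest in 1 class throughout. Both hits to NSN1, a nucleolar GTPase, were highest in Phloem1-like cells in all 6 libraries. As means over libraries, PaChr9.520 had 732 CPM there against 126 in the median class, and PaChr1.2931 had 769 against 91.4. HSFA3 (PaChr5.1025) was highest there as well, at 263 against 42.1, and so was GSTF13, at 1473 against 402. Over the 16 classes, the median correlation between pairs of members was 0.26 (19900 pairs, Pearson, levels centred within each library, no test), and 25.7% of pairs exceeded 0.5. The points share libraries, and the classes share neighbours in the clustering. Pairs of ranked genes were not correlated in the same way, so whether these values are particular to the members was not tested.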

How the data were processed

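Single-cell libraries (10x 3′, Cell Ranger 8.0 per the submitters' notes) and the section (STAR, BSTMatrix and Cellpose segmentation, per the study's methods) were deposited by the authors as raw UMI counts per gene and cell, on the assembly ASM4037322v1. Levels in CPM (counts scaled to a library total of 1000000) were computed here. Of 67194 barcodes 57798 were retained, after removal of 7321 doublets, 2044 barcodes under 500 genes and 31 over 30% scaffold UMIs. Retained libraries held 74518124 to 123257707 UMIs. Any 2 libraries shared 0.108% to 0.417% of the smaller one's barcodes. Intervals cover counting error only.

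Clusters (Scanpy 1.11.5, 3000 variable genes, resolution 0.8) were made without the 200 members and named from 147 markers of 17 types, taken from the study's marker tables, which rest on these same cells. UMI sums per library were tested with edgeR 4.0.16 (quasi-likelihood, TMM, Benjamini-Hochberg over all genes with at least 10 counts in any library). A gene was called where the adjusted p was under 0.05 and the log2 fold change lay beyond 1 in either direction. A library is 1 individual, the replicate. Steps were tested on simulated data, and DESeq2 1.42.0 was an alternative.

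The members and gene lists were chosen with earlier results of these data known. Named genes are the 10 members lowest in ratio, the 10 with most UMIs, up to 3 per list, up to 5 annotated calls per direction with the lowest adjusted p, and the 3 on either side of the limit. Others (PaChr13.191, the shared hits, neighbours and class examples) were picked after their values were seen. Gene symbols are best Arabidopsis hits listed by the study.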

Additional observations from a re-analysis of the deposited data

Results flagged for a closer look

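The share of UMIs on the members was 1.10 times as high in the invasive as in the EU libraries of batch 1, and 0.895 times as high in batch 2. The 2 batches lie on opposite sides of 1. With 1 invasive library in each batch, the difference between them was not tested.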

How the results depend on the processing

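For the invasive against EU comparison, edgeR called 0 members in every alternative except that without NAint113. That alternative leaves NAint191 of batch 2 as the lone invasive library, beside EU60 and EU78 of batch 1 and EU620 of batch 2. Its fit held mean reads per cell and no batch term, so a batch difference was not separated from the lineage difference. Leaving out 1 library gave 0 to 15 members, and DESeq2 called 11. For batch 2 against batch 1, where 68 members were called, leaving out 1 library gave 0 to 69, mean reads per cell as a further covariate gave 0, and a log2 fold change over 2 gave 45 (22.5%, against 11.2% of all genes). Where the members were at 0, 0 of all genes were called too. DESeq2 called 98 members there, and edgeR called 53 with no filter on low counts (26.5%, against 12.9% of all genes). All genes were not matched to the members for UMIs in these contrasts. The cause of these changes was not tested. None of the 22 named batch calls turned its direction in any alternative run, while all 22 lost the call with mean reads as a covariate and without EU620, NAint113 or NAint191. Same-numbered libraries deviated together at r = 0.07 (NAint61 with EU60), 0.54 (NAint113 with EU78) and 0.65 (NAint191 with EU620). The pairs at 0.54 and 0.65 were the highest of all pairs and also share a batch label. Replicate number and batch therefore cannot be told apart in them. NAint113 with EU60, of the same batch but another number, was at 0.34. With the replicate block, edgeR called 0 members and 0 of all genes in the lineage comparison. An unadjusted p below 0.05 was held by 32 members (16%), against 9.29% of all genes. Of the 200 members, 171 to 195 were chosen again under other minimum counts, pseudocounts and cell filters. Depth limits the section, where 90 members had fewer than 10 counts.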
